A study of Mus musculus with 4 samples.

Results

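The 10 genes described here, Tfam, Tfb1m, Tfb2m, Polg, Polg2, Twnk, Polrmt, Esrra, Nrf1 and Gabpa, encode the core machinery that copies and transcribes mitochondrial DNA and the nuclear factors that control mitochondrial biogenesis. They were listed by function, without a threshold on any measured value, and they are 10 of 15114 genes with an Entrez number listed in at least 1 library. All 10 had a mean of at least 1 FPKM (read fragments normalised by gene length and by sequencing depth) and were among the 9501 genes tested. The study compared mouse bone marrow-derived macrophages of the C57BL/6 strain with and without PERK, the stress kinase of the endoplasmic reticulum encoded by Eif2ak3. The wild-type group (PERK WT) was Eif2ak3 fl/fl without Cre, and the knockout group (PERK KO) was LysMcre x Eif2ak3 fl/fl, in which Cre is driven by the lysozyme locus of myeloid cells. Both groups carried the floxed alleles, grew for 7 days in M-CSF at 20 ng/mL and then received IL-4 at 20 ng/mL for 24 h, with 2 libraries each. The labels give no age and do not say whether the libraries of a genotype came from separate animals, so p-values measure only the spread between these libraries.

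Mitochondrial DNA is transcribed by its own RNA polymerase, POLRMT, which needs TFAM to bend and package the DNA at the promoters and TFB2M to open them. It is replicated by the DNA polymerase gamma, made of the catalytic subunit POLG and the accessory subunit POLG2, behind the helicase Twinkle (Twnk). These proteins are encoded in the nucleus, and several of their genes, like genes of the respiratory chain, are classical targets of NRF1, of the ETS-family factor GABPA and of the orphan nuclear receptor ESRRA, often through PGC-1 coactivators. In macrophages, IL-4 activation is known for its reliance on mitochondrial respiration.

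The letters CCGGAAG, the core that ETS factors such as GABPA bind, lay within 250 bases before an annotated start of 6 of the 10 genes, searched on both strands in 12 RefSeq promoter windows of GRCm38.p6. They occur in 17.9% of the 7799 tested genes that have a window and in 6.91% of all 32851 windows. Of the letters searched for ETS factors, NRF1 and ESRRA, only these were found in windows of the members. Each match is shown with 10 bases on either side, read 5′ to 3′ on the strand of the gene. Capitals mark the match, which appears as CTTCCGG where it lies on the other strand.
Tfam, chr10:71238075-71238101 (minus strand): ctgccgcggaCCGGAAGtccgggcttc
Polg, chr7:79466295-79466321 (minus strand): aggacctcacCCGGAAGtccctctgca
Polg2, chr11:106779550-106779576 (minus strand): gggtgacgctCTTCCGGgggcgtggtc
Polrmt, chr10:79746608-79746634 (minus strand): cctaagagcgCTTCCGGcagtcgcaga
Gabpa, chr16:84835021-84835047 (plus strand): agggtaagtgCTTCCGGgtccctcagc
Twnk, chr19:45006438-45006464 (plus strand): taaccggtgaCTTCCGGttccggggtt
Twnk, chr19:45006482-45006508 (plus strand): gagagttttgCTTCCGGagtcaccgcg

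Positions are counted from the annotated start of each promoter window. The first letter of the match lay 47 bases before that start in Tfam, 43 in Polrmt, 38 in Polg and 29 in Polg2. In Gabpa it lay 93 bases before the start, and in Twnk 110 and 66 bases before its second annotated start. The stretches of Tfam, Polg, Gabpa and Twnk lie inside the gene coordinates given below. Their window starts are thus downstream of the outermost end of the gene. The windows of Tfb1m, Tfb2m, Esrra and Nrf1 did not hold these letters. GCGCATGCG, a core of the NRF1 site, and TCAAGGTCA, a core of the ESRRA site, were in no window of the 10 genes. They were in 3.89% and 0.333% of tested genes with a window. A match or its absence describes only these letters in these windows.

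The 4 libraries differed in estimated depth and in composition. Depth was estimated from the most frequent ratio of low values, 0.15 to 0.6 FPKM, between libraries. This assumes that such values fall on steps of single fragments, which was not tested. The estimates were 1.0 and 0.9 for PERK WT and 0.8 and 0.61 for PERK KO, relative to PERK WT replicate 1. Genes with an Entrez number held 58.9% and 57.6% of all FPKM in PERK WT, and 54.8% and 41.1% in PERK KO. The median log2 change of the 9501 tested genes, knockout minus wild type, was -0.14 as deposited and -0.01 after median-ratio scaling of the libraries, so changes of the members and of the related lists are given as deposited and after this scaling. Eif2ak3 measured 10.9 and 8.88 FPKM in PERK WT and 6.55 and 4.88 FPKM in PERK KO, which is -0.70 on the log2 scale with a standard error of 0.18 and did not pass the test (limma adjusted p = 0.776), and gene-level FPKM cannot show which exons were lost. Lyz2, the locus of LysMcre, measured 627 and 699 FPKM against 253 and 201 FPKM. Its log2 change of -1.55 (SE 0.22) did not pass the test either (limma adjusted p = 0.413). The macrophage markers ran from Mertk at 7.34 to 9.65 FPKM to Cd68 at 583 to 786 FPKM. The summed FPKM of other cell types was low in every library: 2.5 to 3.6 for 6 listed neutrophil markers, 0.96 to 1.26 for dendritic cells, and at most 0.44 for T cell, B cell, stromal and listed erythroid markers.

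None of the 10 factors passed the test between PERK KO and PERK WT. At a limma adjusted p of 0.05, 0 of 10 were called, against 2 of 9501 tested genes (0.0211%), and at an unadjusted p under 0.05 it was 0 of 10, against 3.52% of tested genes lower and 0.705% higher. As deposited, 9 members had a log2 change below zero and Nrf1 had one above, beside 80.4% of all tested genes below zero. After median-ratio scaling 5 members lay on each side, beside 53.2% of all tested genes below zero. Wild-type and knockout values did not overlap in 4 of 10 members as deposited, with knockout lower in all 4, beside 35.6% of tested genes lower and 4.14% higher. After scaling, 0 members were separated in either direction, beside 15.3% of tested genes lower and 14.0% higher. The median log2 change of the members was -0.08 as deposited and 0.03 after scaling.

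**Figure D1:**
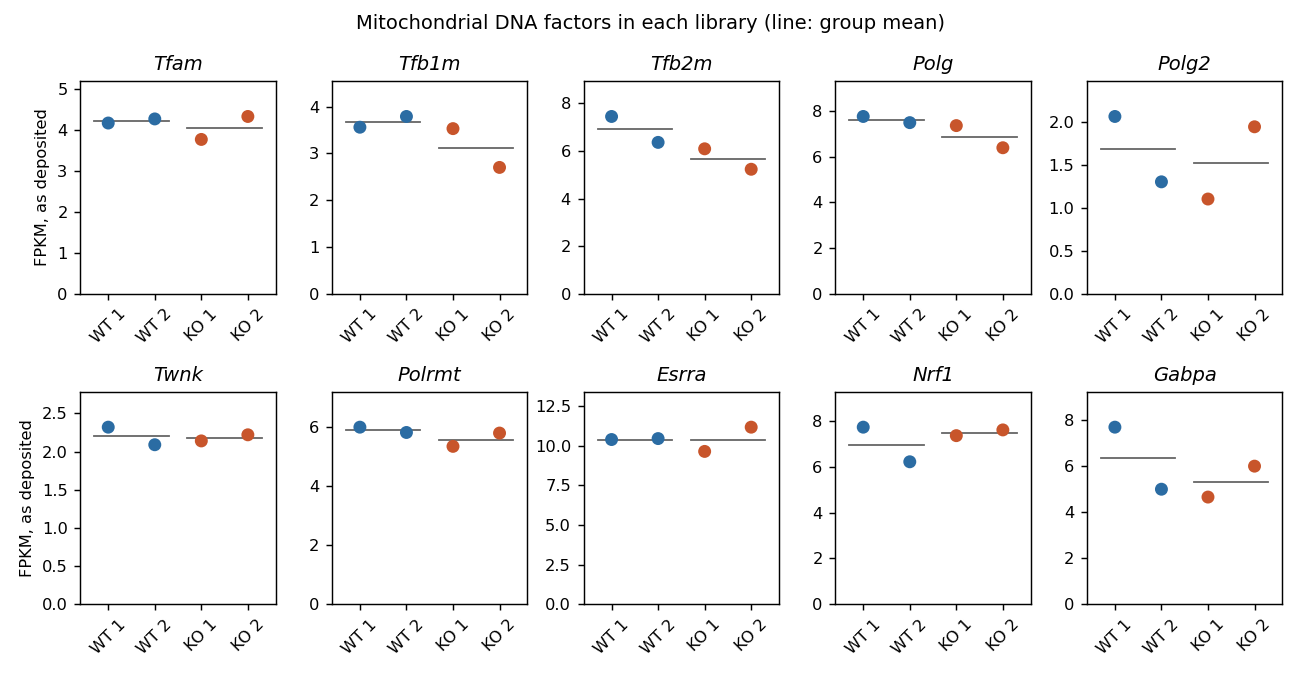
FPKM of each of the 10 genes as deposited (vertical axis, from 0) in the 2 PERK WT libraries (blue) and the 2 PERK KO libraries (orange), with the group mean as a line. Tfb2m, Tfb1m, Polg and Polrmt show both knockout points under both wild-type points, for Polrmt by 5.82 against 5.80 FPKM.

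Of the transcription factors of the organelle, Tfam (Entrez 21780, chromosome 10, 71225468 to 71238328), which coats mitochondrial DNA and activates its promoters, measured 4.16 and 4.26 FPKM in PERK WT and 3.76 and 4.32 FPKM in PERK KO. The groups overlapped, with the lowest and the highest value both in knockout libraries. Knockout minus wild type was -0.05 on the log2 scale (SE 0.15) with a 95% interval of -0.41 to 0.31, and 0.068 with an interval of -0.33 to 0.46 after scaling. A 2-fold change of Tfam in either direction lay outside both intervals, while smaller changes of either sign did not.

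Polrmt (Entrez 216151, chromosome 10, 79736125 to 79746604), the mitochondrial RNA polymerase, measured 6.00 and 5.82 FPKM in PERK WT and 5.35 and 5.80 FPKM in PERK KO. The groups were separated by 0.02 FPKM as deposited and overlapped after scaling. Its log2 change was -0.072 (SE 0.14, interval -0.41 to 0.26), and 0.052 after scaling (interval -0.30 to 0.40).

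Tfb2m (Entrez 15278, chromosome 1, 179528052 to 179546305), which melts the promoter for POLRMT, had the lowest log2 change of the 10. It measured 7.45 and 6.36 FPKM in PERK WT and 6.09 and 5.23 FPKM in PERK KO. Both knockout values were below both wild-type values as deposited. After scaling the groups overlapped, with knockout replicate 1 at a deviation of -0.039, just above wild-type replicate 2 at -0.041. Knockout minus wild type was -0.25 on the log2 scale (SE 0.15, interval -0.62 to 0.12, limma adjusted p = 0.776), and -0.12 after scaling.

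Tfb1m (Entrez 224481, chromosome 17, 3519250 to 3557796), the paralogue of Tfb2m that methylates the small ribosomal RNA of mitochondria, measured 3.56 and 3.79 FPKM in PERK WT and 3.53 and 2.70 FPKM in PERK KO. Knockout replicate 2 was the low library, and knockout replicate 1 lay 0.03 FPKM under the nearer wild-type value. Its log2 change was -0.19 (SE 0.17, interval -0.60 to 0.22) and -0.081 after scaling. Without knockout replicate 2 it was -0.05 as deposited, and without knockout replicate 1 it was -0.34.

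Among the replication genes, Polg (Entrez 18975, chromosome 7, 79446231 to 79467911), the catalytic subunit of the polymerase, measured 7.76 and 7.49 FPKM in PERK WT and 7.36 and 6.39 FPKM in PERK KO. It was the steadiest member after scaling, with a range of 0.05 on the log2 scale over the 4 libraries. On the log2 scale the change was -0.13 (SE 0.14, interval -0.47 to 0.21) as deposited and -0.0069 after scaling, where its interval of -0.28 to 0.27 was the narrowest of the 10.

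Polg2 (Entrez 50776, chromosome 11, 106768204 to 106779537), the accessory subunit that raises processivity, was the lowest and most variable member. It measured 2.06 and 1.3 FPKM in PERK WT and 1.1 and 1.94 FPKM in PERK KO, so that 1 library of each genotype was high and 1 was low. The log2 change was -0.094 (SE 0.26, interval -0.71 to 0.52) as deposited and -0.00065 (interval -0.71 to 0.71) after scaling. With a pseudocount of 0.1 in place of 1, which compresses low genes less, the interval widened to -1.12 to 0.82. On the scale of each fit, a fall of Polg2 by 2-fold was outside none of these intervals.

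Twnk (Entrez 226153, chromosome 19, 45005663 to 45012764), the replicative helicase, measured 2.32 and 2.09 FPKM in PERK WT and 2.14 and 2.22 FPKM in PERK KO. Both knockout values lay between the wild-type values. The log2 change was -0.01 (SE 0.17, interval -0.42 to 0.40) as deposited and 0.09 (interval -0.32 to 0.50) after scaling. With the smaller pseudocount it was -0.014 with an interval of -0.59 to 0.56.

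Among the nuclear regulators, Esrra (Entrez 26379, chromosome 19, 6910977 to 6922048) was the most abundant member at 10.4 and 10.46 FPKM in PERK WT and 9.65 and 11.18 FPKM in PERK KO. The wild-type values lay between the knockout values, and the log2 change was -0.0051 (SE 0.14, interval -0.35 to 0.33), or 0.13 after scaling.

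Nrf1 (Entrez 18181, chromosome 6, 30047985 to 30153458), the nuclear respiratory factor, was the member with the highest log2 change. It measured 7.73 and 6.22 FPKM in PERK WT and 7.36 and 7.61 FPKM in PERK KO, and both knockout values lay between the wild-type values. The log2 change was 0.10 (SE 0.15, interval -0.27 to 0.46), and 0.22 (interval -0.16 to 0.61) after scaling. Without wild-type replicate 2, the low library, it was -0.041 as deposited.

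Gabpa (Entrez 14390, chromosome 16, 84834891 to 84863783), the DNA-binding subunit of GABP, measured 7.68 and 4.99 FPKM in PERK WT and 4.65 and 5.99 FPKM in PERK KO. Wild-type replicate 1 stood above the other libraries. Its log2 change was -0.20 (SE 0.22, interval -0.72 to 0.32) as deposited and -0.074 (interval -0.70 to 0.56) after scaling. The deposited value turned to 0.069 without wild-type replicate 1 and was -0.47 without wild-type replicate 2.

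**Figure D2:**
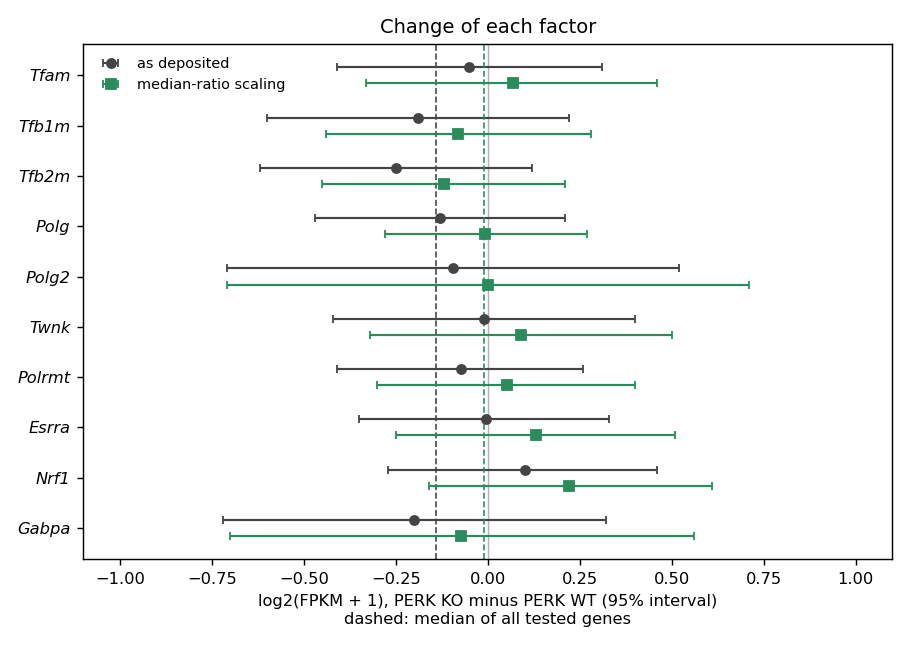
Log2(FPKM + 1) of PERK KO minus PERK WT for each gene, with 95% limma intervals, as deposited (grey circles) and after median-ratio scaling (green squares); dashed lines mark the median of all tested genes, -0.14 and -0.01. Every interval crosses 0, and the interval of Polg2 is the widest.

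By level, the order over the 4 libraries ran from Esrra at a mean of 10.4 FPKM through Polg at 7.25, Nrf1 at 7.23, Tfb2m at 6.28, Gabpa at 5.83, Polrmt at 5.74, Tfam at 4.12, Tfb1m at 3.39 and Twnk at 2.19 to Polg2 at 1.6 FPKM. Neighbours from Polg to Polrmt had overlapping ranges, as did Tfam and Tfb1m. Esrra, Twnk and Polg2 each stood apart from their neighbours in every library. Among all tested genes the members ranked from the 6.09 percentile (Polg2) to the 54.6 percentile (Esrra), so that the machinery of the mitochondrial genome was weakly to moderately expressed. GENCODE exons of Polg share 921 bases with Fanci on the opposite strand, those of Twnk 507 bases with Mrpl43 and those of Gabpa 397 bases with Atp5j. Tfb1m, Polg2 and Esrra share 142, 132 and 73 bases with Tiam2, Milr1 and Trmt112, and Esrra shares 91 bases with Mir6990 on its own strand. Whether reads were counted by strand is not given in the sources used here, so over these bases fragments of the overlapping genes cannot be told apart.

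The members also differed between libraries of 1 genotype. After scaling, 6 of the 10 (Tfam, Polg2, Twnk, Polrmt, Esrra and Nrf1) were highest in knockout replicate 2, beside 26.4% of all tested genes. The median deviation of all 10 members from each gene's own mean was 0.17 there. In wild-type replicates 1 and 2 and knockout replicate 1 it was 0.02, -0.06 and -0.07. The median absolute log2 difference between the replicates was 0.09 in PERK WT and 0.22 in PERK KO for the members. It was 0.15 and 0.16 for all tested genes. Knockout replicate 2 is also the shallowest library, at an estimated 0.61 of the depth of wild-type replicate 1, and the one with 41.1% of its FPKM on Entrez-numbered genes. The part of either in these values was not tested.

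**Figure D3:**
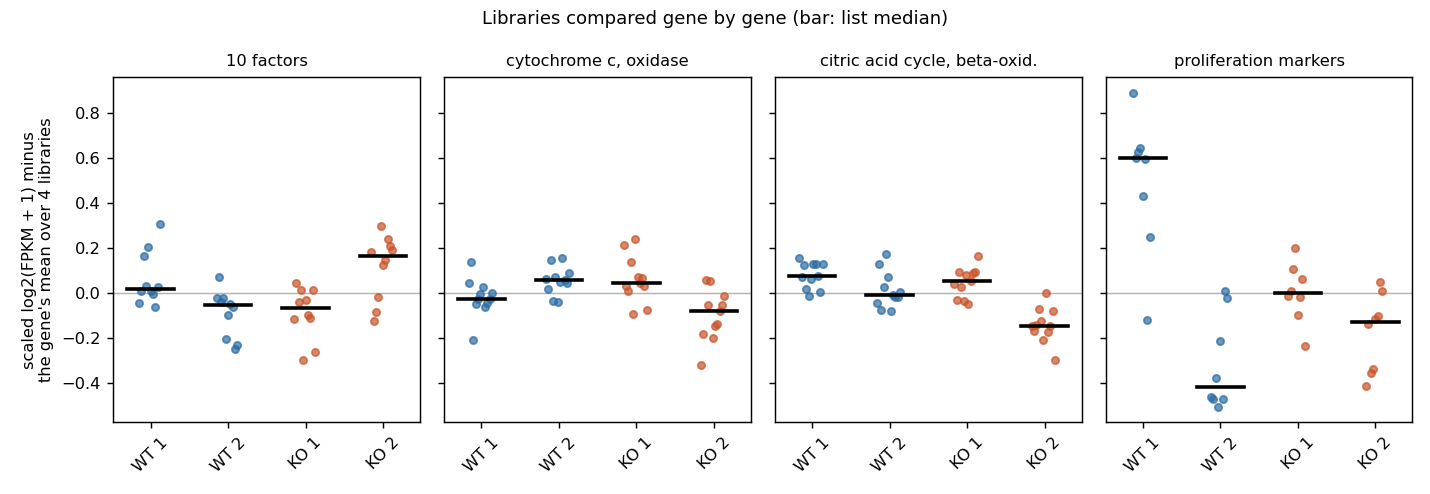
Scaled log2(FPKM + 1) of each gene minus its mean over the 4 libraries, for the 10 factors, cytochrome c and cytochrome oxidase genes, enzymes of the citric acid cycle, beta-oxidation and related steps, and proliferation markers; bars are list medians. The 10 factors have their highest median in KO 2 (0.17), where the enzymes have their lowest (-0.15), and proliferation markers have their highest in WT 1 (0.60).

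Proliferation markers followed the single libraries too. Mki67 measured 67.29 and 25.89 FPKM in PERK WT and 34.17 and 22.78 FPKM in PERK KO, and Pcna, the most abundant of the list, 256 and 282 FPKM against 280 and 247 FPKM. The list's median deviation was 0.60 in wild-type replicate 1 and -0.42 in wild-type replicate 2. After scaling, 3 of the 10 members (Gabpa, Tfb2m and Polg) were highest in wild-type replicate 1, near the share of all tested genes, 25.8%. In the same library 7 of the 8 proliferation markers were highest. So were 10 of the 20 tested genes of mitochondrial DNA replication and nucleotide supply outside the 10 members. For Polg the deviation there was only 0.03. A part of cell division in these values was not tested.

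Of the other genes of replication and nucleotide supply, 18 of the 20 tested had log2 changes below zero as deposited, beside 80.4% of all tested genes. After scaling it was 12 of 20, beside 53.2%. Of 21 genes in this list 20 were tested and 0 were called. At an unadjusted p under 0.05, 1 was lower and 0 higher, beside 3.52% and 0.705% of all tested genes. The median log2 change was -0.18 as deposited and -0.06 after scaling, beside -0.14 and -0.01 for all tested genes. Dguok, the mitochondrial deoxyguanosine kinase that salvages purine nucleosides, measured 10.18 and 8.62 FPKM in PERK WT and 6.95 and 6.52 FPKM in PERK KO. The groups did not overlap, also after scaling, and the log2 change was -0.42 (SE 0.15, limma adjusted p = 0.776), or -0.29 after scaling. Dguok was the 1 gene of the list under an unadjusted p of 0.05 as deposited, and after scaling Ssbp1, in the other direction, was the 1 gene under it. Ssbp1, the single-stranded DNA-binding protein of the mitochondrial replisome, measured 1.99 and 2.44 FPKM against 3 and 3.24 FPKM. Both knockout values were above both wild-type values, and the log2 change was 0.36 (SE 0.17, limma adjusted p = 0.776), or 0.47 after scaling. Sucla2, a subunit of succinyl-CoA ligase whose loss depletes mitochondrial DNA in humans, measured 18.11 and 18.41 FPKM against 16.23 and 12.95 FPKM, with a log2 change of -0.31, or -0.18 after scaling.

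Genes of mitochondrial transcription and RNA handling outside the members lay close to the median gene. The median log2 change was -0.10 as deposited and 0.03 after scaling, beside -0.14 and -0.01 for all tested genes. Of 21 genes 17 were tested and 0 were called, beside 0.0211% of all tested genes. Under an unadjusted p of 0.05 there were 0, beside 3.52% of all tested genes lower and 0.705% higher. Fastkd3, a member of the FASTK family of mitochondrial RNA-binding proteins, measured 2.62 and 1.49 FPKM in PERK WT and 2.90 and 4.12 FPKM in PERK KO. Its log2 change was 0.57 (SE 0.24, limma adjusted p = 0.776), or 0.68 after scaling. Lrpprc, which stabilises mitochondrial messenger RNAs, measured 16.53 and 14.44 FPKM against 13.71 and 12.27 FPKM, and Fastk, the founding member of that family, 12.21 and 10.58 FPKM against 9.91 and 9.30 FPKM. Their log2 changes were -0.24 and -0.22 as deposited and -0.10 and -0.09 after scaling. The RNAs that this machinery makes from mitochondrial DNA are not analysed here.

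Coactivators and partner factors differed widely in level, and no tested one passed the test between genotypes. Ppargc1a, which encodes PGC-1α, was listed at 0.01 FPKM in 1 library and not listed in the other 3, and Ppargc1b stood at 0.15 to 0.59 FPKM, while Pprc1, a related coactivator, measured 6.94 and 7.79 FPKM in PERK WT and 7.30 and 6.32 FPKM in PERK KO. Esrrg, a paralogue of Esrra, was listed at no more than 0.01 FPKM. Of 20 genes 14 were tested and 0 were called, beside 0.0211% of all tested genes. At an unadjusted p under 0.05 there were 0, beside 3.52% of all tested genes lower and 0.705% higher. The list median was -0.13 as deposited and -0.01 after scaling, beside -0.14 and -0.01 for all tested genes. Nfe2l2, the antioxidant factor NRF2, measured 56.81 and 55.43 FPKM against 45.74 and 42.58 FPKM, which differ by -0.34 on the log2 scale (SE 0.15, limma adjusted p = 0.776), or by -0.20 after scaling. Gabpb2, a partner subunit of GABPA, measured 6.24 and 5.57 FPKM against 5.16 and 4.71 FPKM, and Nrip1, a corepressor of ESRRA, 3.42 and 3.44 FPKM against 2.98 and 2.58 FPKM, with log2 changes of -0.22 and -0.23 as deposited and -0.10 and -0.12 after scaling. After scaling, these 3 of the 14 genes had both knockout values under both wild-type values, beside 15.3% of tested genes, and Gabpb1 and Prkaa1 had both above, beside 14.0%.

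Respiratory genes of the kind that NRF1, GABPA and ESRRA control had list medians below zero in PERK KO, as had all tested genes together. None of these respiratory genes passed the test. Of all tested genes 80.4% were below zero as deposited and 53.2% after scaling, with medians of -0.14 and -0.01. Of 11 cytochrome c and cytochrome oxidase genes all 11 were below zero as deposited and 8 after scaling, with medians of -0.19 and -0.04, near those of all tested genes. Of 11 enzymes of the citric acid cycle, beta-oxidation and related steps all 11 were below zero as deposited and 10 after scaling, with medians of -0.25 and -0.11. In both lists 0 genes were called, beside 0.0211% of all tested genes. Under an unadjusted p of 0.05 there were 0, beside 3.52% of all tested genes lower and 0.705% higher. Cox4i1 measured 185 and 171 FPKM in PERK WT and 165 and 127 FPKM in PERK KO (log2 change -0.30, or -0.15 after scaling), with Cox8a at -0.23 and -0.089 and Cox7a2 at -0.24 and -0.094. Acadm, which starts the oxidation of medium-chain fatty acids, measured 23.37 and 24.49 FPKM against 20.84 and 16.77 FPKM (log2 change -0.34, or -0.20 after scaling), with Sdhb at -0.30 and -0.16 and Idh3a at -0.25 and -0.11.

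In both lists knockout replicate 2 was the low library for most genes. It was the lowest library for 10 of the 11 oxidase genes and for all 11 enzymes as deposited, beside 60.6% of all tested genes, and for 8 and 10 of them after scaling, beside 29.5%. Without it the list medians were -0.03 and -0.05 as deposited, and that of the 10 factors was -0.11. This fit was unscaled, and knockout replicate 2 had the lowest median-ratio factor, 0.899 beside 1.01 to 1.06. Of the genes named above, Cox8a, Acadm and Sdhb then stood at -0.18, -0.19 and -0.18. Cox4i1, Cox7a2 and Idh3a stood at -0.11, -0.061 and -0.074. For the 10 factors the same library was the lowest in 3 as deposited and in 2 after scaling. The difference between the lists was not tested, and in bulk RNA a change in RNA per cell and in the make-up of the cells cannot be told apart.

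**Figure D4:**
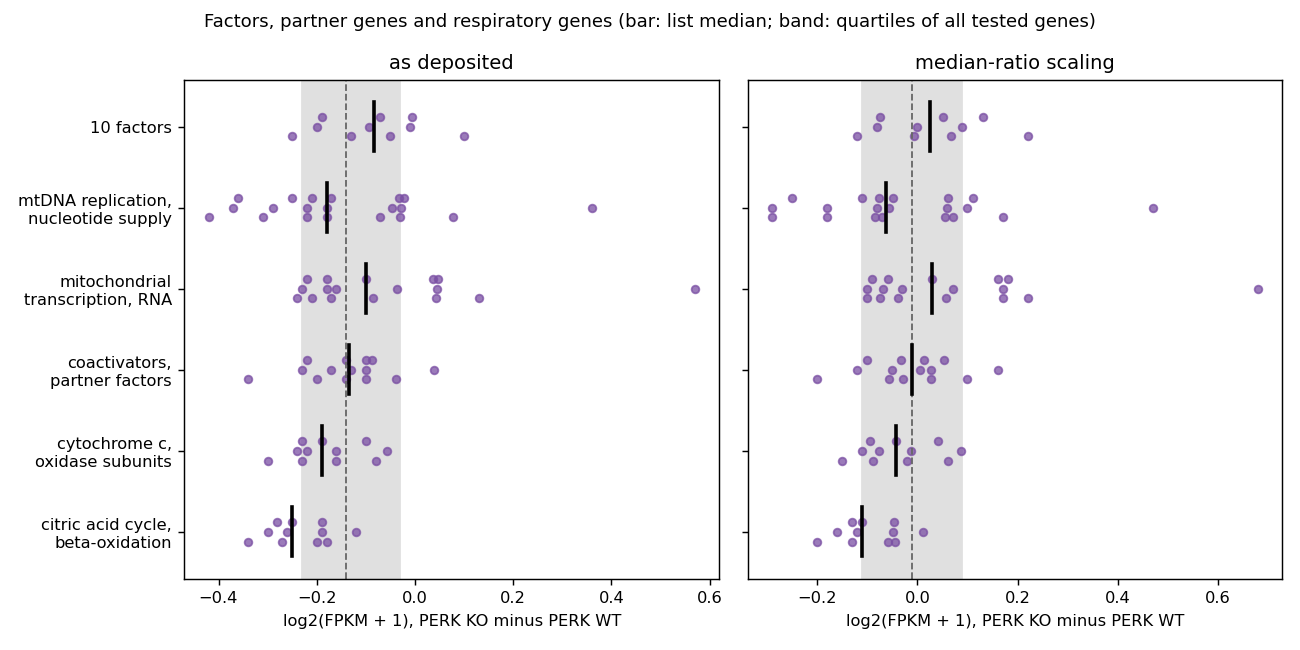
Log2(FPKM + 1) of PERK KO minus PERK WT for each tested gene of the 10 factors and 5 related lists, as deposited (left) and after median-ratio scaling (right); black bars are list medians, the grey band spans the quartiles of all tested genes and the dashed line their median. The 10 factors lie around the median gene, and the enzyme list lies lowest, at -0.25 and -0.11.

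Over the 4 libraries, the profile nearest to the mean of the 10 members, by the summed absolute difference of scaled log2 deviations, was that of Dcaf10 (0.013), followed by Gucd1 (0.016) and Ankrd46 (0.042). The nearest single genes were Aars2 for Tfam, Mrpl42 for Tfb1m, Gas2l3 for Tfb2m, Flywch1 for Polg, Snrpb for Polg2, Ccdc174 for Twnk, Rgp1 for Polrmt, Trim11 for Esrra, Nr2c2 for Nrf1 and Nsl1 for Gabpa, at differences of 0.006 to 0.052. With 4 libraries and 9501 genes such matches are a description of these libraries only.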

How the data were processed

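RNA was measured in 4 libraries, made from ribosomal RNA-depleted total RNA with a stranded kit, per the labels' protocols. The values are FPKM to 2 decimals, computed by the authors and deposited as 1 table per library; the submitters' processing notes list mm10 and the tools Bowtie2, HISAT, RSEM and StringTie, without versions or roles. The annotation is not given in the sources used here. A gene missing from a table was taken as 0 (smallest listed value 0.01 FPKM). Entrez numbers were matched to RefSeq symbols and coordinates of GRCm38.p6 (15094 of 15114 matched). Promoter letters come from RefSeq, overlapping exons from GENCODE M21 on the same assembly.

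Genes that averaged 1 FPKM or more were compared on log2(FPKM + 1), which understates changes of low genes, with limma 3.58.1 (mean-variance trend, two-sided, no block) in R 4.3.3, with Benjamini-Hochberg adjustment over all 9501 genes. The tables hold no counts, so absolute depth is unknown and no counting interval is given. Relative depth was taken from the most frequent ratio of values between 0.15 and 0.6 FPKM in pairs of libraries. Median-ratio factors came from genes listed in all 4 libraries. The fit was tested on simulated data.

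The members and lists were chosen with earlier results of these data known. Named genes are the 10 members, Eif2ak3, Lyz2, the 3 tested genes with the smallest p in each list, the most abundant macrophage and proliferation markers and the nearest profiles. Mki67, Pprc1, Ppargc1a, Ppargc1b and Esrrg were added after their values were seen. Mertk, the lowest macrophage marker, and Gabpb1 and Prkaa1, separated after scaling, were also named for their values. Alternatives covered the pseudocount, filter, scaling, features fitted, replicate block and each library left out.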

Additional observations from a re-analysis of the deposited data

How the results depend on the processing

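No factor passed the threshold under any of the 11 alternatives, and none reached an unadjusted limma p under 0.05 (lowest 0.0736, for Gabpa without wild-type replicate 2; lowest adjusted p 0.403). Of 106 alternative values of the 10 log2 changes, 89 kept their sign and 17 turned it, to sizes of 0.15 or less. With median-ratio scaling the turned values were 0.068 for Tfam, 0.09 for Twnk, 0.052 for Polrmt and 0.13 for Esrra, and with upper-quartile scaling 0.071, 0.092, 0.055 and 0.13, with Polg2 at 0.0016. With 1 library left out, the values of the genes that turned ran from -0.13 to 0.03 for Tfam, from -0.34 to 0.15 for Polg2, from -0.062 to 0.041 for Twnk and from -0.10 to 0.092 for Esrra. They ran from -0.041 (without wild-type replicate 2) to 0.23 for Nrf1 and from -0.47 to 0.069 (without wild-type replicate 1) for Gabpa. Tfam and Esrra turned without knockout replicate 1, Polg2 and Twnk without that library and also without wild-type replicate 1 (0.11 and 0.041). The members' median was 0.03 under both scalings and ran from -0.12 to -0.01 with 1 library left out. Over all genes, the 2 calls became 14 (6 higher, 8 lower) with the replicate number as a block, and 2 to 43 with 1 library left out, the highest without wild-type replicate 2 (39 higher, 4 lower). Deviations of same-numbered libraries correlated at 0.07 over 9501 genes, and the labels do not pair them. With a minimum mean of 5 FPKM, Tfam, Tfb1m, Polg2 and Twnk were not tested. The scalings themselves remove the shift of -0.14 of the median gene; the cause of the other turns was not tested. With 2 libraries a group, and an estimated 0.61 of the highest depth in knockout replicate 2, intervals of the members reached from -0.72 to 0.52 as deposited. Changes within them could not be told from no change. These intervals are not a limit of detection, since larger changes also went uncalled, such as Lyz2 at -1.55 (limma adjusted p = 0.413).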
